A study of Homo sapiens with 6 samples.

Results

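The RAB genes encode small GTPases that direct vesicle traffic. A RAB protein holds its effectors on a membrane while it carries GTP, and after GTP is cleaved it is taken off the membrane in its GDP form by a GDI chaperone. Exchange factors and GTPase activators set this cycle, and each RAB acts at certain organelles, such as the endoplasmic reticulum, endosomes, lysosomes or secretory granules. In granulocytes and mast cells, members such as RAB27A are known for the docking and release of granules.

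Members were the genes whose symbol is RAB followed by a number and at most 1 letter, with at least 60 counts summed over the 6 libraries. This took 44 of the 43424 symbols in the files, out of 63 symbols of that form. The 19 left out held 0 to 37 counts. RAB17 (62 counts) and RAB3A (67 counts) stood just inside the minimum, RAB42 (37 counts) and RAB30 (33 counts) just outside.

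The libraries came from HL-60, a human acute myeloid leukaemia line, recorded as wild type. One group was exposed for 6 months to CIP, an extract of Corydalis incisa (Thunb.) Pers., at concentrations that were raised from 2 to 20 µg/ml, and the other to DMSO for the same time. The series calls the CIP-exposed cells resistant and asks about genes behind CIP-driven differentiation of leukaemia cells. There were 3 libraries per label, made with QuantSeq, a method that sequences only the 3′ end of messenger RNAs. Total counts ran from 8143657 to 10868396 per library. Whether the replicates came from separate cultures is not in the labels, and p-values therefore cover only how these samples vary, possibly for technical reasons.

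Markers of the labelled cell were read before the RAB genes. MPO, the myeloperoxidase that HL-60 is known to make, had 245628 counts with the CIP label and 33 with the DMSO label, and the tumour antigen PRAME had 1502 and 0. Over all 8 promyelocyte and HL-60 markers, which include ELANE, AZU1, PRTN3, CTSG, CD33 and MYC, 5 were higher and 3 lower with the CIP label. Their summed level was 9733 to 10280 CPM in the CIP-labelled libraries and 1644 to 1765 CPM in the DMSO-labelled ones. MPO alone had means of 8684 CPM with the CIP label and 1.12 CPM with the DMSO label. The 3 lower markers were ELANE (333 against 592 CPM), AZU1 (25.2 against 44.1 CPM) and CTSG (95.4 against 655 CPM), CIP label first. CPM are counts scaled to a common library size, after edgeR's TMM scaling between libraries. Of 8 monocyte and macrophage markers 4 were lower and 0 higher, with sums of 21.0 to 29.1 against 246 to 267 CPM, and CD14 had 2 and 0 counts. Of 6 mast cell and basophil markers 1 was higher and 2 lower, with sums of 44.9 to 46.3 against 104 to 119 CPM. These sums join opposite genes, with TPSAB1 at a mean of 0 against 108 CPM and KIT at 42.3 against 0.468 CPM. Of 8 lymphoid markers 3 were lower, with sums of 3.83 to 4.71 against 87.5 to 108 CPM, and MS4A1 had no count. Single genes made up most of the monocyte and lymphoid sums, LYZ with means of 17.8 against 232 CPM and NKG7 with 3.20 against 79.7 CPM. The 6 erythroid markers summed to at most 2.28 CPM in any library, and of 5 megakaryocyte markers all but ITGA2B were at 0. Of 8 epithelial and fibroblast markers 0 were called, with sums of 54.4 to 133 against 133 to 235 CPM. The near absence of MPO goes against the HL-60 label of the DMSO libraries, but the listed markers do not all go the same way. ELANE, AZU1 and CTSG were higher with the DMSO label. PRTN3, CD33 and MYC were lower there but still had means of 287, 65.7 and 41.8 CPM. The reason for these differences was not tested. Groups are therefore named by their labels, and a gene that rose was higher under CIP, one that fell lower. The part of these marker differences in the RAB results was not tested.

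All 44 members passed the filter on low counts. With edgeR's quasi-likelihood test over 12844 genes, 33 of the 44 (75%) were called at an adjusted p under 0.05, against 73.1% of all genes tested. Of these, 13 rose and 20 fell, against 34.9% and 38.2% of all genes. At least a 2-fold change was found in 20 members, 4 higher and 16 lower, against 15.0% and 24.0% of all genes and 39.0% in either direction. The share of members called was close to that of all genes. The libraries of the labels did not overlap for 34 of the 44, against 75.5% of all genes. The median log2 fold change was -0.08 over members and -0.03 over all genes, and the median size of change was 0.76 in both. When library totals replaced TMM, the median of all genes moved from -0.03 to -0.26, and 9 members rose and 22 fell. The share of called members that were higher then went from 39.4% to 29%, and that of all called genes from 47.7% to 36.8%. Of the members, 5 had under 10 counts over one of the groups (RAB6B, RAB13, RAB17, RAB27B and RAB33A), so these passed the filter through the group where they were higher. RAB3C, with 25 counts with the CIP label and 121 with the DMSO label, also passed it only through the DMSO label.

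**Figure D1:**
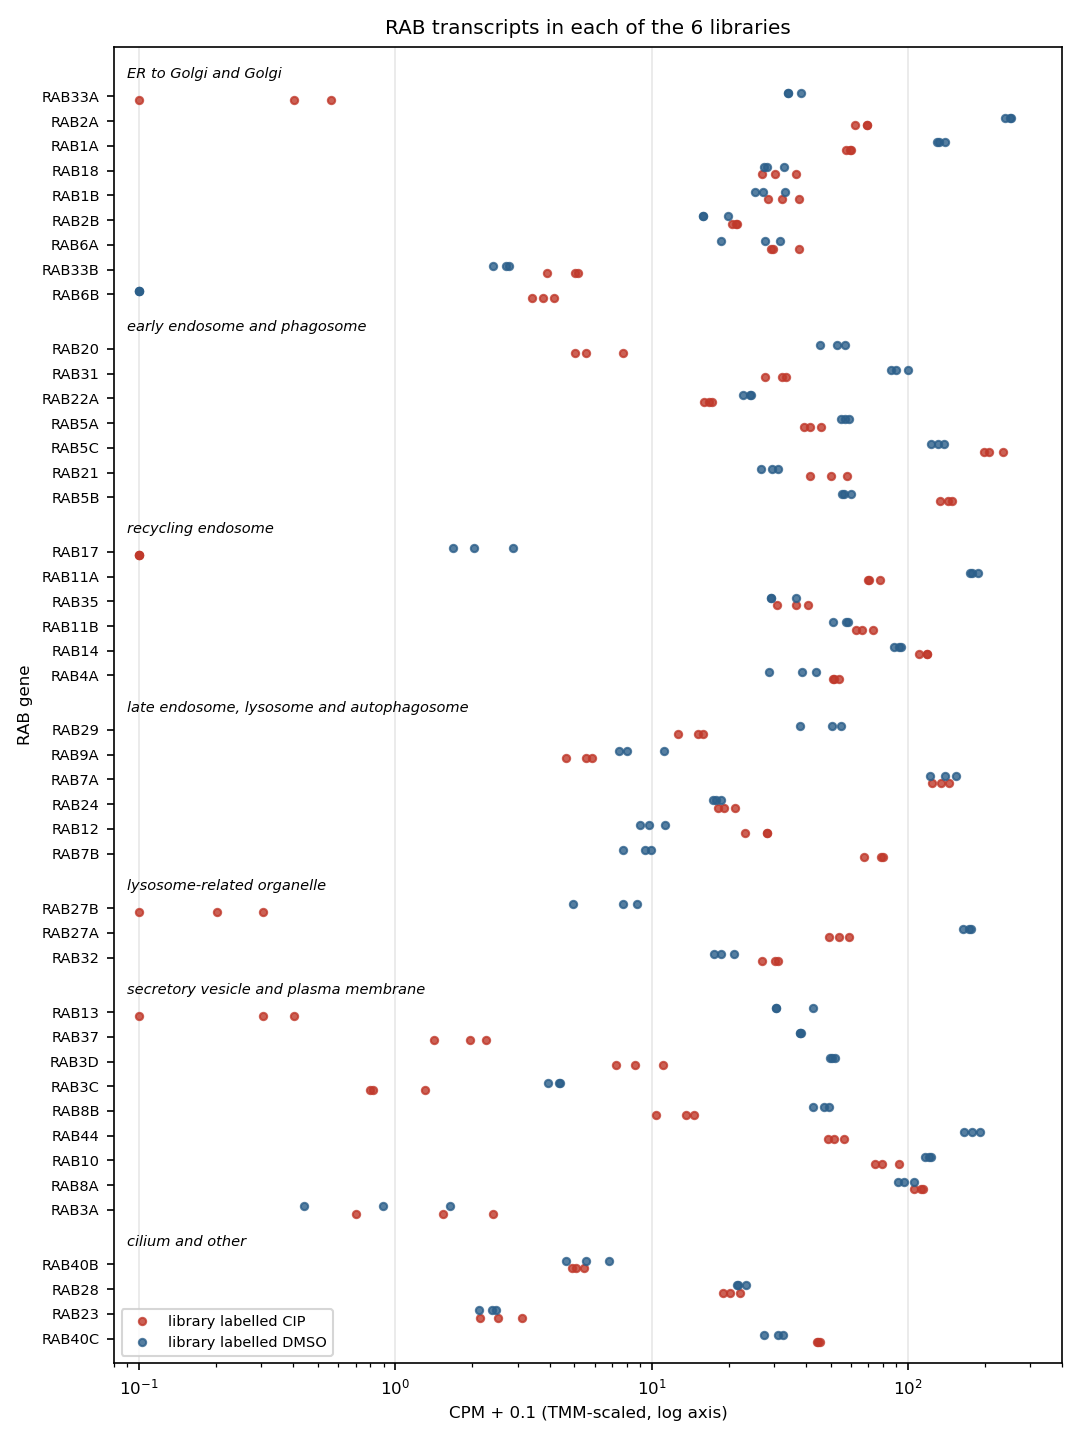
Level of each of the 44 RAB genes in each of the 6 libraries (points), as CPM + 0.1 on a log axis, grouped by the main site of action. RAB13, RAB17, RAB27B and RAB33A lie at or near 0 in the 3 CIP-labelled libraries and RAB6B is at 0 in the 3 DMSO-labelled ones, while the RAB7A points of the labels overlap.

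Promoters of the members were compared by their base composition. RefSeq's table for GRCh38.p14 (250 bases before to 50 after a gene's start) matched 36 of the 44 members, all but RAB12, RAB1A, RAB20, RAB2A, RAB33A, RAB33B, RAB37 and RAB44. The sequences shown are those of RAB7B, the member of the largest rise among those read in every library, of RAB13, RAB27B and RAB17, which were at or near 0 with the CIP label, of RAB6B, which was at 0 with the DMSO label, and of RAB7A, for which the difference did not pass the test. Each runs 5′ to 3′ on the strand of its gene, and capitals mark CpG dinucleotides, the sites of DNA methylation, which was not measured here.
RAB7B (chr1:206003346-206003645, minus strand): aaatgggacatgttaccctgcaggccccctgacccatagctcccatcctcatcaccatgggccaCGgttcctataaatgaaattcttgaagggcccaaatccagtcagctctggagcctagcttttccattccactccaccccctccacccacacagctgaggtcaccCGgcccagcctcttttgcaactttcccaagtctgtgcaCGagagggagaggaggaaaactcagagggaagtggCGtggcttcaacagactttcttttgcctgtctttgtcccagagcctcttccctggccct
RAB6B (chr3:133895833-133896132, minus strand): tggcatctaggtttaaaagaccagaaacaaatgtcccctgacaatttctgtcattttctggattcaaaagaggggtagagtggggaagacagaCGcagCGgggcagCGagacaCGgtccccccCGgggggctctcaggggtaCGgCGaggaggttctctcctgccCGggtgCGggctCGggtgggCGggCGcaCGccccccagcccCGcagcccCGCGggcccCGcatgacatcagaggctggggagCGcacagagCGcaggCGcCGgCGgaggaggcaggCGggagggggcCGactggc
RAB13 (chr1:153986290-153986589, minus strand): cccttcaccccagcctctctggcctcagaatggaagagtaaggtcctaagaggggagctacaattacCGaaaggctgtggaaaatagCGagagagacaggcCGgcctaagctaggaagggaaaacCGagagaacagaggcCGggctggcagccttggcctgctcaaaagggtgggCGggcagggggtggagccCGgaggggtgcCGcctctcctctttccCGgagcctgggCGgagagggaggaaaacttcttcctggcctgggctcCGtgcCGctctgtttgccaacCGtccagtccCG
RAB27B (chr18:54717607-54717906, plus strand): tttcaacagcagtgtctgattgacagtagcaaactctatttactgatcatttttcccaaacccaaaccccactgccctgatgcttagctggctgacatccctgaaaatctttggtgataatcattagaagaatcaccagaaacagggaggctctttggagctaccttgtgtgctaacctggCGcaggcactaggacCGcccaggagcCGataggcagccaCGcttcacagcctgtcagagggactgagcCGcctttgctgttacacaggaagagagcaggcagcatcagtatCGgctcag
RAB17 (chr2:237590685-237590984, minus strand): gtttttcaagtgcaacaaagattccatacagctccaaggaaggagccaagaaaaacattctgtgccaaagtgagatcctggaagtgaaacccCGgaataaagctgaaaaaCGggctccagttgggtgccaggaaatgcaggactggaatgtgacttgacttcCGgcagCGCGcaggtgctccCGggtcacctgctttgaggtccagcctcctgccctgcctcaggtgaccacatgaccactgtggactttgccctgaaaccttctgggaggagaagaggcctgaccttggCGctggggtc
RAB7A (chr3:128725933-128726232, plus strand): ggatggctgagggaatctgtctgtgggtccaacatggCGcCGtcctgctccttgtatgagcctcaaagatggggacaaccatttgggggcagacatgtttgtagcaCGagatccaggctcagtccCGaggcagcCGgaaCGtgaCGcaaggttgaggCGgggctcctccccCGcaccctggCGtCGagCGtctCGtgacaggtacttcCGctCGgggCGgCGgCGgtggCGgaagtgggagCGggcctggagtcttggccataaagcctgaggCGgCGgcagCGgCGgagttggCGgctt

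The RAB7B promoter held 4 CpG, RAB27B 6, RAB17 7, RAB13 14, RAB6B 24 and RAB7A 25. The ratio of observed to expected CpG, which corrects for base composition, was 0.19 for RAB7B, 0.31 for RAB17 and RAB27B, and 0.49 for RAB13. It was 0.71 for RAB6B and 0.82 for RAB7A. The median was 0.83 over the 36 members and 0.58 over all 35116 promoters of that length, and the median GC content was 67.2% and 58.7%. RAB13, RAB17 and RAB27B could pass the filter on low counts only through the DMSO label, so no link between promoter composition and change is drawn.

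Of short motifs searched on both strands, the GC box GGGCGG was in 31 of the 36 member promoters (86.1%) and in 45% of all 35116, a set with the lower GC content given above that is not limited to tested genes. The E-box CACGTG was in 6 (16.7%, against 7.26% of all), namely 2 of 11 that rose, 3 of 14 that fell and 1 of 11 not called. CCAAT was in 9 (25.0%, against 34.6% of all), 5 of those that rose and 1 of those that fell. The PU.1 box GAGGAAGT was in 1, RAB40C (2.78%, against 2.59% of all). A match is a description and no site of binding.

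Of the 9 members that act between the endoplasmic reticulum and the Golgi or within the Golgi, 2 rose, 3 fell and 4 did not pass. Of all genes tested, 34.9% rose and 38.2% fell. RAB2A (chromosome 8, 60516910 to 60623644, GRCh38), which acts in early secretory traffic and in the fusion of autophagosomes with lysosomes, stood at 69.0, 69.0 and 62.1 CPM with the CIP label and at 250.2, 252 and 240.0 CPM with the DMSO label. All DMSO-labelled libraries were higher, and RAB2A fell 3.71-fold (log2 fold change -1.89, SE 0.07, edgeR adjusted p = 5e-22). RAB1A (chromosome 2, 65086854 to 65130106), needed for transport from the endoplasmic reticulum to the Golgi, stood at 57.5, 59.9 and 59.6 against 129.5, 132 and 139.9 CPM. It was 2.27-fold lower with the CIP label (log2 fold change -1.18 ± 0.08, edgeR adjusted p = 2.4e-15), and the groups were far apart compared with their spread. Its close relative RAB1B did not pass (log2 fold change 0.20 ± 0.13, edgeR adjusted p = 0.16), nor did RAB2B, RAB6A and RAB18. RAB1B was called higher without replicate 2 of CIP (adjusted p = 0.042), RAB2B without replicate 1 of DMSO (0.037), and RAB6A without replicate 3 of CIP (0.025), without replicate 1 of DMSO (0.018) or with no filter on low counts (0.034).

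RAB33A (chromosome X, 130110623 to 130184870), which is known from lymphoid and neural cells, had 4, 0 and 3 counts with the CIP label and 344, 398 and 300 with the DMSO label. That is 0.255 ± 0.235 against 35.4 ± 2.41 CPM (SD, n = 3), 136-fold lower (log2 fold change -7.09 ± 0.31). RAB33A passed the filter on low counts only through the DMSO label, so no p-value is given. With so few counts under CIP the size of its fall is loosely set: it was -7.73 on the log2 scale without replicate 1 of CIP and -6.49 without replicate 2. RAB33B, a Golgi RAB that binds the autophagy protein ATG16L1, stood at 3.82, 4.92 and 5.04 against 2.67, 2.30 and 2.60 CPM. It rose by a log2 fold change of 0.86 ± 0.35 (edgeR adjusted p = 0.026), a call lost with DESeq2 (adjusted p = 0.066), with library totals (0.10) and on leaving out replicate 2 (0.064) or 3 (0.071) of CIP or replicate 2 of DMSO (0.076). RAB6B, the neuronal relative of the Golgi RAB6A, had 35, 36 and 33 counts with the CIP label and 0 in all 3 DMSO-labelled libraries. Against 3 counts over the group, it was at least 35.9-fold higher.

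Every one of the 7 members of the early endosome and phagosome was called, 3 higher and 4 lower, against 73.1% of all genes. None of them had libraries that overlapped between labels, against 75.5% of all genes without overlap, and neither count is read as particular to the group. The paralogues RAB5A, RAB5B and RAB5C, which set the identity of early endosomes and drive their fusion, did not move together. RAB5B (chromosome 12, 55973949 to 55996683) stood at 144, 149 and 133 CPM with the CIP label and at 56.2, 55.1 and 60.2 CPM with the DMSO label, 2.49-fold higher (log2 fold change 1.31 ± 0.08, edgeR adjusted p = 2.1e-16). RAB5C (chromosome 17, 42124979 to 42154989) had the most counts of all members and stood at 208, 199 and 236 against 123, 131 and 139 CPM, 1.64-fold higher (edgeR adjusted p = 1.6e-10). RAB5A (chromosome 3, 19947097 to 19985175) went the other way, with 41.4, 39.2 and 45.9 against 54.7, 56.8 and 58.7 CPM, 1.34-fold lower (edgeR adjusted p = 0.00031).

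RAB20, known to respond to interferon and hypoxia and to act on maturing phagosomes, fell most in this group. It stood at 5.43, 4.92 and 7.67 CPM with the CIP label and at 45.4, 56.9 and 52.9 CPM with the DMSO label, 8.57-fold lower (log2 fold change -3.10 ± 0.16, edgeR adjusted p = 1.6e-18). RAB31 fell 2.96-fold and its relative RAB22A, which with it controls traffic between early endosomes and the trans-Golgi network, fell 1.43-fold. RAB21, which binds integrins and takes part in their uptake, stood at 50.3, 58.0 and 41.4 against 31.2, 29.3 and 26.7 CPM and rose 1.71-fold (edgeR adjusted p = 7.3e-07).

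**Figure D2:**
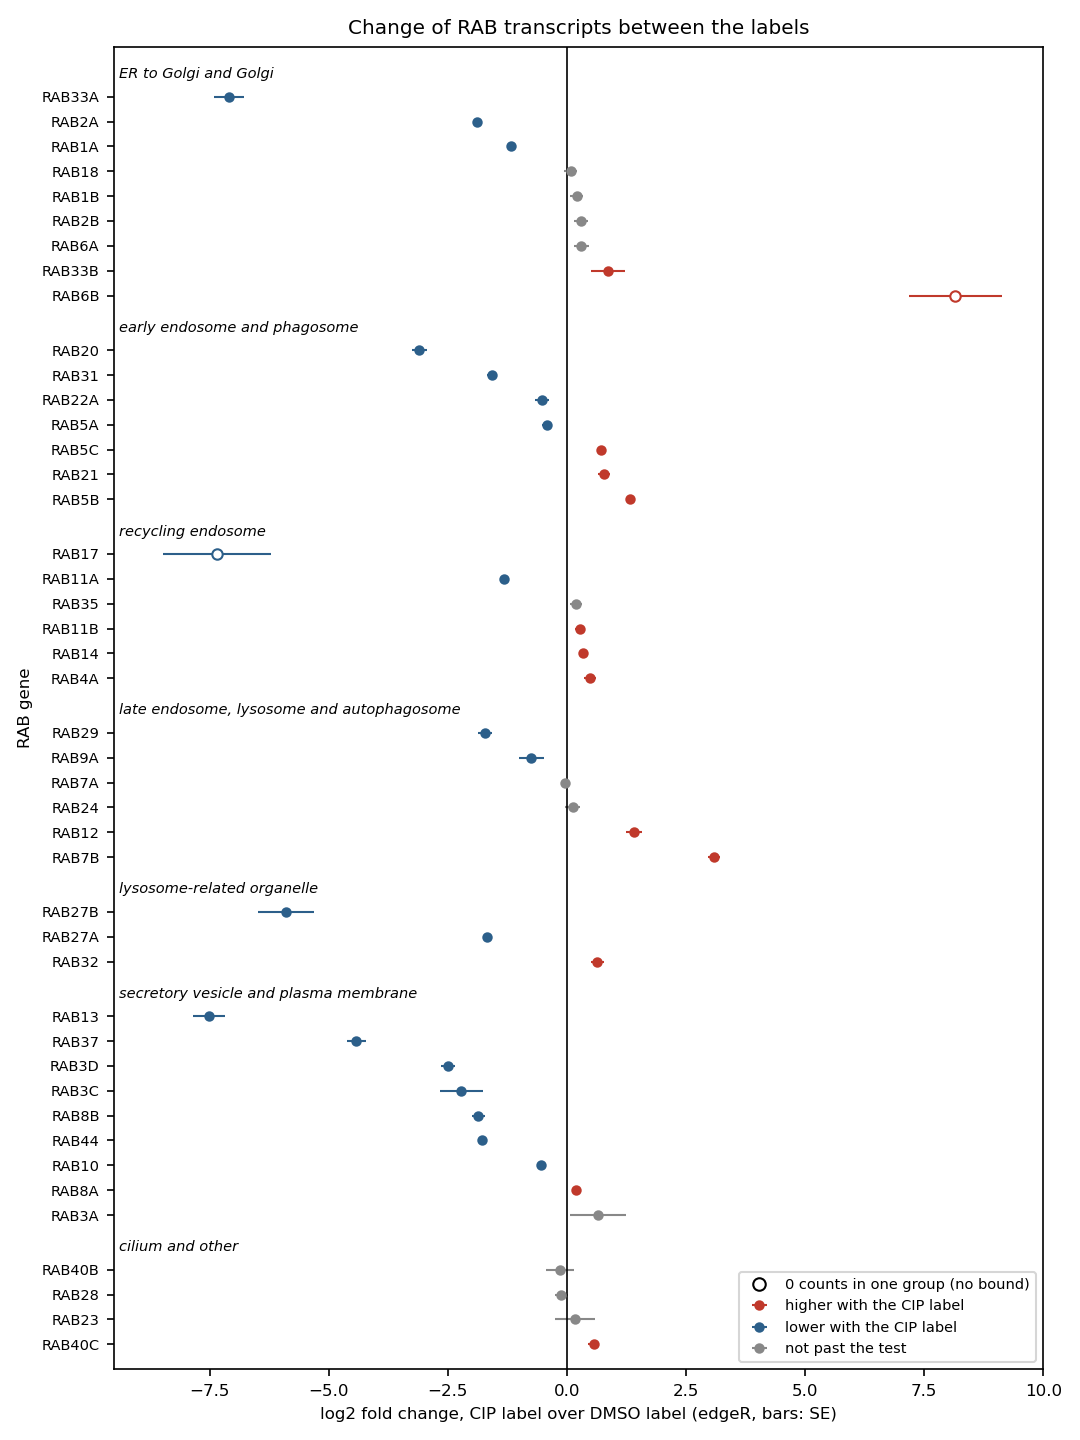
Log2 fold change of each RAB gene, CIP label over DMSO label, with its standard error from edgeR, grouped by main site of action. In the secretory group 7 of 9 genes lie left of 0 and passed the test, while the early endosome group is split into 3 higher and 4 lower, and open points (RAB6B and RAB17) have 0 counts in one group, so that their fitted value is no bound.

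Among the 6 members of recycling endosomes 3 rose and 2 fell, where 34.9% of all genes rose and 38.2% fell. The remaining 1, RAB35, did not pass (called higher without replicate 2 of CIP, edgeR adjusted p = 0.038). RAB11A (chromosome 15, 65869491 to 65891989), the main GTPase of the slow recycling route, stood at 70.1, 77.6 and 70.2 CPM with the CIP label and at 178, 188 and 175 CPM with the DMSO label. It fell 2.49-fold (log2 fold change -1.31 ± 0.08, edgeR adjusted p = 3.2e-17). RAB11B, its paralogue, stood at 73.3, 62.5 and 66.0 against 51.0, 57.2 and 58.5 CPM and rose by 0.27 ± 0.09 on the log2 scale (edgeR adjusted p = 0.0097). That call was lost with library totals (adjusted p = 0.68) and without CIP replicate 1 (0.064) or DMSO replicate 1 (0.077). RAB4A, of the fast recycling route, stood at 51.2, 53.9 and 50.9 against 38.5, 43.7 and 28.6 CPM and rose 1.40-fold (edgeR adjusted p = 0.00043). RAB14, which links the Golgi and endosomes, rose 1.26-fold, and its call was lost with library totals. RAB17, an epithelial RAB, had 0 counts in every CIP library and 16, 29 and 17 with the DMSO label, at least 19.9-fold lower against 3 counts over the group.

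Of the 6 members of late endosomes, lysosomes and autophagosomes 2 rose, 2 fell and 2 did not pass, where 34.9% of all genes rose and 38.2% fell. RAB7A (chromosome 3, 128726183 to 128814798), the GTPase of the step from endosome to lysosome, stood at 135, 124 and 145 CPM with the CIP label and at 155, 139.6 and 122 CPM with the DMSO label. The libraries overlapped, and the log2 fold change was -0.04 ± 0.08 (edgeR adjusted p = 0.64). With library totals alone RAB7A was lower (log2 fold change -0.27, adjusted p = 0.0025). RAB7B (chromosome 1, 205976740 to 206003395), a separate gene that acts between late endosomes and the trans-Golgi network and is known from monocytic cells, stood at 78.9, 67.5 and 80.3 CPM against 7.63, 9.30 and 9.84 CPM. It rose 8.47-fold (log2 fold change 3.08 ± 0.13, edgeR adjusted p = 4.4e-21), and the lowest CIP-labelled library was above the highest DMSO-labelled one.

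RAB12, which takes part in the lysosomal breakdown of the transferrin receptor, stood at 28.2, 28.2 and 23.1 against 11.2, 9.69 and 8.93 CPM and rose 2.66-fold (edgeR adjusted p = 2.6e-09). RAB29, a RAB linked to the kinase LRRK2, fell 3.30-fold, from 47.7 ± 8.73 to 14.5 ± 1.67 CPM (n = 3). RAB9A, of the route from late endosomes to the trans-Golgi network, fell 1.68-fold (edgeR adjusted p = 0.01, and not called without DMSO replicate 1). RAB24 did not pass, at 19.4 ± 1.5 against 17.9 ± 0.595 CPM. Its value is uncertain, since 97.9% of the 50-base stretches at its transcript ends also occur in transcripts of its neighbour MXD3.

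The 3 members of lysosome-related organelles were all called, 1 higher and 2 lower, where 73.1% of all genes were called. RAB27A (chromosome 15, 55202966 to 55319123), which docks secretory granules at the plasma membrane, stood at 49.0, 53.7 and 58.8 CPM with the CIP label and at 173, 177 and 164 CPM with the DMSO label. It fell 3.18-fold (log2 fold change -1.67 ± 0.08, edgeR adjusted p = 3.1e-19). RAB27B (chromosome 18, 54717857 to 54895516), its paralogue of platelets and mast cells, had 0, 2 and 1 counts against 49, 80 and 77. Its summed level was 66.2 times lower with the CIP label, with an exact 95% interval of 22.4 to 324 that covers counting error only. RAB27B passed the filter on low counts only through the DMSO label, so no p-value is given and the interval is no test of the difference. RAB32, which brings enzymes to melanosomes and other lysosome-related organelles, went the other way, at 30.3, 31.1 and 26.9 against 18.5, 20.8 and 17.4 CPM, 1.55-fold higher (edgeR adjusted p = 0.00012). RAB38, which shares that role with RAB32, was not a member, with 3, 6 and 0 counts against 8, 5 and 9.

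In the group of secretory vesicles and the plasma membrane 7 of 9 members fell, 1 rose and 1 did not pass, with a median log2 fold change of -1.86. Of all genes, 38.2% fell and 73.1% were called, and the median was -0.03. RAB13 (chromosome 1, 153981650 to 153990708), known from tight junctions and cell migration, had 0, 2 and 3 counts with the CIP label and 430, 317 and 269 with the DMSO label. That is 0.169 ± 0.154 against 34.5 ± 7.03 CPM (n = 3), a log2 fold change of -7.51 ± 0.34. RAB13 passed the filter on low counts only through the DMSO label, so no p-value is given. The size of its fall moved to -8.14 without replicate 3 of CIP, and its range on leaving out single libraries ended at -7.00. RAB37 (chromosome 17, 74671131 to 74747335), which was described on mast cell granules, stood at 1.85, 2.15 and 1.31 against 38.0, 38.4 and 37.9 CPM. It fell 21.4-fold (edgeR adjusted p = 5.5e-20), and the DMSO-labelled libraries differed from each other by far less than from the CIP-labelled ones. RAB44 (chromosome 6, 36697826 to 36733184), a large RAB with calcium-binding EF-hands that is known from granulocytes and mast cells, stood at 48.7, 51.3 and 56.1 against 166, 192 and 177 CPM and fell 3.42-fold (edgeR adjusted p = 6.5e-20).

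RAB3D, the RAB3 form of non-neuronal secretory granules, stood at 7.17, 8.50 and 10.99 CPM against 49.5, 51.8 and 50.6 CPM and fell 5.66-fold (edgeR adjusted p = 4.3e-17). RAB3C fell from 4.13 ± 0.256 to 0.874 ± 0.292 CPM, and RAB3A, with 40 and 27 counts over the groups, did not pass. RAB3C had 6, 7 and 12 counts with the CIP label and passed the filter on low counts only through the DMSO label. RAB8B, which acts in transport to the plasma membrane, stood at 14.6, 13.5 and 10.3 against 47.1, 49.0 and 42.7 CPM and fell 3.63-fold (edgeR adjusted p = 4.3e-14). Its paralogue RAB8A stood at 106, 115 and 113 against 96.9, 106 and 91.8 CPM, a log2 fold change of 0.18 ± 0.08 (edgeR adjusted p = 0.037). This small rise was not called with RLE scaling (adjusted p = 0.063), with DESeq2 (0.099) or on leaving out replicate 2 (0.076) or 3 (0.052) of CIP or replicate 1 (0.10) or 3 (0.19) of DMSO, and its sign turned with library totals (log2 fold change -0.05). RAB8A transcript ends share 17.5% of their 50-base stretches with transcripts of HSH2D on the same strand, which had 2036 counts with the CIP label and 15 with the DMSO label. RAB10, which brings the glucose transporter GLUT4 to the surface of fat cells, fell 1.47-fold. Of the 4 remaining members RAB40C, part of a ubiquitin ligase, stood at 44.6, 45.5 and 44.2 against 31.0, 32.4 and 27.4 CPM and rose 1.48-fold (edgeR adjusted p = 3.7e-05), while RAB23, RAB28 and RAB40B did not pass. With library totals RAB28 was called lower (adjusted p = 0.033).

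Added up, members held 0.166% of all counts in each library with the CIP label and 0.263%, 0.265% and 0.256% with the DMSO label. The groups did not overlap, and the exact 2-sided permutation test gave p = 0.10, the smallest that 3 against 3 libraries allow. As TMM-scaled levels, the sums were 1789 to 1823 against 2357 to 2482 CPM. Differences below 0 added up to -1010.3 CPM and those above 0 to 390.1 CPM, and RAB2A, RAB44, RAB27A and RAB11A lost most, with differences of -180.8, -126, -118 and -108 CPM. RAB5B, RAB5C and RAB7B gained most, with 85.0, 83.5 and 66.6 CPM. In bulk samples, fewer cells of a type and less RNA per cell cannot be told apart.

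The mix of sites within the RAB counts differed as well. Members of the early endosome took 27.9% ± 0.29 of all RAB counts with the CIP label and 18.2% ± 0.65 with the DMSO label (SD, n = 3). Those of late endosomes and lysosomes took 15.3% ± 0.75 against 9.58% ± 0.97, and recycling members 19.1% ± 0.49 against 16.5% ± 0.49. In turn, secretory members took 15.1% ± 0.74 against 23.6% ± 0.19, the endoplasmic reticulum and Golgi group 14.0% ± 0.092 against 21.5% ± 0.22, and lysosome-related organelle members 4.63% ± 0.17 against 8.15% ± 0.12. Genes with many counts weigh most in such shares. In the Golgi group RAB2A and RAB1A differed by -180.8 and -74.84 CPM, but the group's median log2 fold change was 0.2. In the early endosome group RAB5B and RAB5C differed by 84.95 and 83.55 CPM, but 3 members rose, 4 fell and the median was -0.43. The 7 shares add up to the whole and are not independent. The summed RAB level was itself lower with the CIP label (1789 to 1823 against 2357 to 2482 CPM), so a larger share is not a higher level. Among recycling members, RAB11A differed by -108 CPM, while RAB14, which gained most of them, differed by 24.1 CPM. Among late endosome and lysosome members RAB7B differed by 66.6 CPM and RAB29 by -33.25 CPM. For each, the libraries of the labels did not overlap and the exact permutation test gave p = 0.10, also after Benjamini-Hochberg adjustment over the 7.

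**Figure D3:**
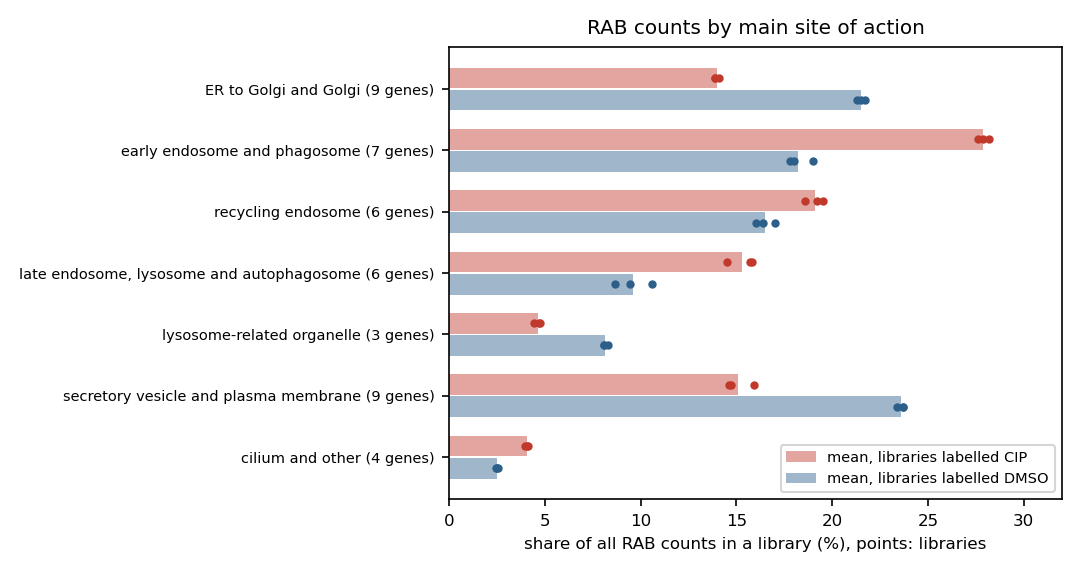
Share of all RAB counts of a library that falls on members of each main site of action, with bars for the mean of 3 libraries and points for single libraries. The early endosome group holds 27.9% with the CIP label and 18.2% with the DMSO label, and the secretory group 15.1% and 23.6%.

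Close relatives were then compared within libraries, as the ratio of one to the rest of its subfamily, which does not depend on scaling between libraries. There were 15 ratios in 11 subfamilies, and each exact permutation p that was the smallest possible (0.10) came to 0.115 after adjustment over the 15. Shares are of counts and are used to compare labels, not genes. RAB11A made up 48.9%, 55.4% and 51.6% of the RAB11A and RAB11B counts with the CIP label and 77.8%, 76.7% and 75.0% with the DMSO label. RAB8A held 89.7% ± 1.9 of the RAB8 counts against 67.9% ± 0.59, and RAB1A 64.4% ± 3.3 of the RAB1 counts against 82.5% ± 1.4. RAB2A held 76.0% ± 0.7 against 93.5% ± 0.78 of the RAB2 counts. For each of these 4, all libraries of one label lay apart from those of the other.

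RAB33A held 5.49% ± 5.4 of the RAB33 counts with the CIP label and 93.3% ± 0.88 with the DMSO label. RAB33A had 7 against 1042 counts and passed the filter on low counts only through the DMSO label, while RAB33B had 131 against 74 counts. Within RAB5, the RAB5A share was 10.6% ± 0.46 against 23.2% ± 0.36 and the RAB5B share 35.7% ± 3.3 against 23.4% ± 0.63. The RAB5C share was 53.7% ± 2.9 against 53.5% ± 0.72, and its log2 ratio to the others differed by 0.02 (exact permutation p = 0.90). RAB3D held 78.7% ± 7.7 against 91.0% ± 0.54 of the RAB3 counts, while the RAB3C share overlapped between labels (exact permutation p = 0.80). In 4 subfamilies (RAB5, RAB8, RAB11 and RAB33) the called members went in opposite directions, with the limits given above for RAB8A, RAB11B, RAB33A and RAB33B.

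**Figure D4:**
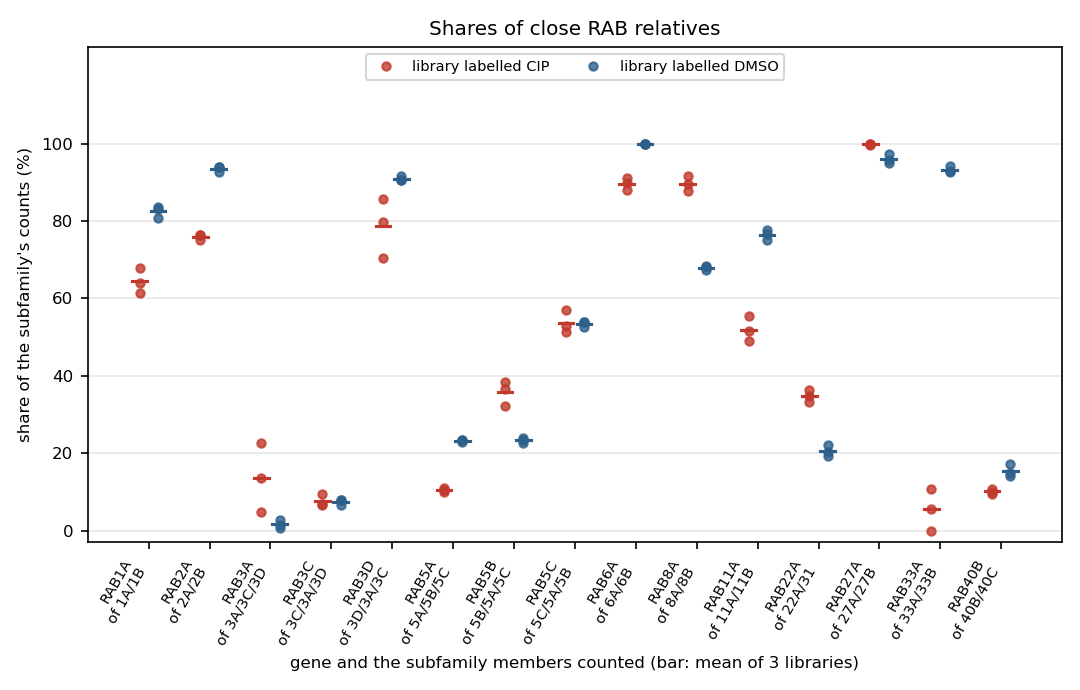
Share of a gene in the summed counts of its close RAB relatives, for each library (points) and as the mean of 3 (bars). RAB33A, which had 7 counts with the CIP label, goes from 93.3% with the DMSO label to 5.49% with the CIP label, whereas the RAB5C and RAB3C points of the labels overlap.

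Beyond the RAB genes, 146 genes of the RAB cycle were listed, of which 124 were tested and 87 (70.2%) called, 32 higher and 55 lower, against 73.1% of all genes. Among 8 tested chaperones and prenylation factors 2 rose and 5 fell (87.5% called). GDI2, the main carrier of GDP-bound RABs in most cells, fell from 353 ± 9.09 to 193 ± 1.11 CPM (n = 3, log2 fold change -0.87 ± 0.06, edgeR adjusted p = 2.6e-14). The RAB receptor RABAC1 fell from 30.3 ± 1.84 to 9.86 ± 2.38 CPM. Both subunits of the geranylgeranyl transferase that attaches lipids to RABs rose, RABGGTA from 12.8 ± 0.863 to 25.7 ± 0.778 CPM and RABGGTB from 4.17 ± 1.54 to 11.7 ± 4.32 CPM.

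Of 38 tested exchange factors 9 rose and 17 fell, 68.4% called, where 34.9% of all genes rose and 38.2% fell. The DENN-domain genes DENND5B and DENND1B rose, DENND1B by 1.41 on the log2 scale (edgeR adjusted p = 9e-09). DENND2D, of a family that acts on RAB9, fell from 40.3 ± 8.23 to 0.434 ± 0.246 CPM, and DENND6B and C9orf72, part of a complex of the autophagy pathway, also fell. Of 32 GTPase activators 8 rose and 14 fell (68.8% called), and only 5 rose with library totals. TBC1D22A rose from 13.9 ± 1.46 to 55.6 ± 2.86 CPM, with TBC1D10C and EVI5, while TBC1D16 fell from 25.0 ± 1.45 to 0.289 ± 0.18 CPM, with TBC1D30 and TBC1D2. DENND2D, DENND6B, TBC1D16 and TBC1D30 passed the filter on low counts only through the DMSO label, and DENND5B only through the CIP label.

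Effectors rose in 13 and fell in 19 of 46 tested cases, 69.6% called against 73.1% of all genes. BICD2, the dynein adaptor bound by RAB6, rose from 16.3 ± 0.267 to 49.5 ± 2.27 CPM, and LRRK1 and the RAB27 effector SYTL1 rose too. RAB11FIP5, a RAB11 effector, had 7 counts with the CIP label and 1407 with the DMSO label (log2 fold change -7.53 ± 0.30). OPTN, the autophagy receptor and RAB8 effector optineurin, fell from 32.4 ± 2.52 to 0.394 ± 0.342 CPM, and SYTL3 fell from 5.55 ± 1.21 to 0.484 ± 0.219 CPM. RAB11FIP5, OPTN and SYTL3 passed the filter on low counts only through the DMSO label, so no p-value is given for them. All 5 RAB11 family interacting proteins were in the list, a set singled out after values were seen. RAB11FIP5 and RAB11FIP4 fell, RAB11FIP2 rose (log2 fold change 0.84 ± 0.10), and RAB11FIP1 and RAB11FIP3 did not pass. Of the 6 HOPS subunits, which tether RAB7 membranes and were singled out in the same way, VPS11 and VPS33A rose, VPS16 and VPS39 fell, and VPS18 and VPS41 did not pass.

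**Figure D5:**
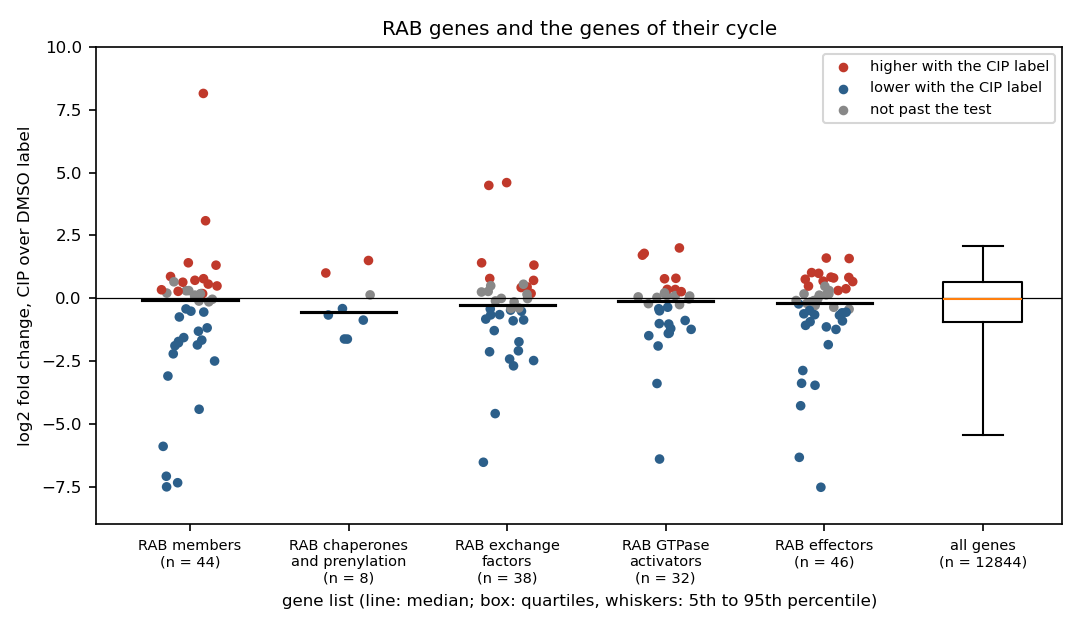
Log2 fold change, CIP label over DMSO label, of the 44 RAB genes and of the tested genes in 4 lists of the RAB cycle (points, with the median as a line), beside a box for all 12844 genes tested (quartiles, whiskers at the 5th and 95th percentile). Each list has genes on both sides of 0, and its median lies between -0.54 (chaperones and prenylation) and -0.08 (RAB genes).

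Reads of some members can belong to neighbours. In GENCODE release 29, exons of 25 of the 44 members overlap exons of another gene, 8 on the same strand and 21 on the opposite one, and no source used here gives the strand setting of the counting. Between 10% and all of the 50-base stretches at the transcript ends are shared with another gene for 6 members. These are RAB24 and RAB8A, given above, RAB5C (30.6%), RAB6A (20.1%, with RAB6C and RAB6D, which had 0 counts), RAB4A (14.1%) and RAB13 (13.2%).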

How the data were processed

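Reads per gene symbol were taken as the authors deposited them, as whole-number counts without normalization, with a separate table for each library, per the file headers. Tools in the submitters' processing notes are STAR, HTSeq, fastp and bcl2fastq 2.20.0.422, with the build GRCh38. No source used here gives the annotation, the strand setting, the handling of reads with several matches or any molecular identifiers. Counting error alone is therefore in the intervals and floors.

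Genes were tested with edgeR 4.0.16 in R 4.3.3 (filterByExpr, TMM, robust quasi-likelihood, group alone, 2-sided, Benjamini-Hochberg over 12844 genes, called under 0.05), with all members read from that fit. CPM use TMM-scaled totals of the tested genes, and an SE is the log2 fold change divided by the square root of F. A library's 3 counts equal 0.288 to 0.347 CPM, and 3 counts over a group 0.106 (CIP) and 0.102 CPM (DMSO). A gene at 0 in a group is set against 3 counts over that group, and 1 to 3 counts give a ratio with an exact 95% interval. Subfamily ratios add 0.5 counts to each side. On simulated counts (12789 genes tested) 46 of 67 genes simulated at 1.5-fold were found, as were 54 of 67 at 2-fold and 65 of 66 at 4-fold. There were 14 false calls. Only these genes were changed in the simulation, up or down at random, whereas 73.1% of genes were called in the data. The rates found there can therefore not be carried over to the data.

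Members, site groups, RAB cycle and marker lists were chosen with earlier results of these data known. Per-library values are given for the 8 called members per direction of largest change with at least 5 CPM in the higher group, for subfamilies with opposite calls, for the 4 members of highest mean CPM and, whatever their values, for 12 listed RAB genes (RAB1A, RAB5A, RAB5B, RAB5C, RAB7A, RAB11A, RAB27A, RAB27B, RAB32, RAB37, RAB38 and RAB44). From each cycle list, up to 3 called genes per direction at 5 CPM or more are named. Some genes that this rule picks are not reported here. Positions are RefSeq's for GRCh38.p14. Transcript ends are the last 500 bases of GENCODE protein-coding transcripts. Alternatives were RLE scaling, library totals, other filters on low counts, DESeq2 1.42.0, voom in limma 3.58.1, a replicate block, other count minimums and leaving out each library. No pair of libraries was treated as a duplicate, since pairs within groups differed beyond sampling noise (chi-square per gene 3.89 to 8.02).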

Additional observations from a re-analysis of the deposited data

How the results depend on the processing

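All 44 members were tested under each alternative, and 31 to 34 were called in place of 33. The count of at least 2-fold changes was 4 higher and 16 lower in all 13 alternative fits. Calls were lost for RAB8A, RAB9A, RAB11B, RAB14 and RAB33B and gained for RAB1B, RAB2B, RAB6A, RAB7A, RAB28 and RAB35, each under at least 1 alternative. Leaving out 1 library gave 12 to 13 members higher and 19 to 20 lower, and a log2 fold change of RAB7A between -0.139 and 0.033, above 0 without CIP replicate 2 (0.025) and without DMSO replicate 1 (0.033). With library totals RAB8A turned to -0.049 and GTPase activators that rose went from 8 to 5. The difference in the RAB share of counts was -0.0955 percentage points and -0.107 without mitochondrial genes in the total, with -0.0983 to -0.0936 when 1 library was left out. The log2 ratio of RAB5C within RAB5 then lay between -0.077 and 0.085, negative without CIP replicate 3 (-0.077) and without DMSO replicate 1 (-0.009), and that of RAB3C within RAB3 between -0.058 (without CIP replicate 3) and 0.188. The cause of these shifts was not tested. No shared signal was seen between same-numbered libraries (correlation of deviations from the group mean -0.0603 to -0.0231). Whether they were paired in the experiment is not in the labels. With the replicate block 32 members and 9061 of all genes were called, RAB8A (adjusted p = 0.056) and RAB33B (0.061) no longer and RAB6A (0.046) newly. A minimum of 20 or 600 counts gave 47 or 35 genes in place of 44. Without a filter on low counts 46.2% of 22384 genes were called, with 34 members.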
